A study of Mus musculus with 7 samples.

Results

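The genes described here encode 10 receptors for serotonin: Htr1a, Htr1b, Htr1d, Htr1f, Htr2a, Htr2b, Htr2c, Htr3a, Htr3b and Htr4. They were chosen by symbol, 10 of 19938 named genes on an Affymetrix expression array, and each had 1 probe set that the platform annotation gives to that gene alone. The arrays measured pancreatic islets of 7 female mice of C57BL/6 background, taken on day 15 of pregnancy after mating at 12 to 16 weeks of age. The 3 PrlR+/+ mice were wild type for the prolactin receptor, and the 4 PrlR+/- mice were heterozygous for a null allele of it. The islets of each mouse went on an array of their own, so a replicate is a mouse. Levels of the targeted receptor itself are not analysed here and gave no check of the genotypes.

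Serotonin receptors fall into classes by what they do in the cell. Htr3a and Htr3b encode subunits of a serotonin-gated cation channel, the genes of the Htr1 group encode receptors that couple to Gi/o proteins and lower cyclic AMP, those of the Htr2 group couple to Gq and phospholipase C, and Htr4 encodes a receptor that couples to Gs and raises cyclic AMP. In pregnancy, lactogens acting on the prolactin receptor are known to raise serotonin synthesis in mouse beta cells, and Htr2b, Htr1d and Htr3a are the receptors usually named in work on the beta cell response to that serotonin. The comparison of the genotypes asks whether receptor transcripts depended on an intact pair of prolactin receptor alleles.

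Of the 10 receptor genes, 4 lay above the dim range on all 7 arrays: Htr3a and Htr1b by a clear margin, Htr1f and Htr4 by a small one. Htr1d was above it on 5 arrays and Htr3b on 1 array, while Htr1a, Htr2a, Htr2b and Htr2c were above it on none. The dim range was set from 1203 olfactory, vomeronasal and trace amine receptor genes, which serve in sensory epithelia. Its upper limit was their 95th percentile on the same array, which ranged from 5.80 to 6.07 as a log2 value. By this measure 68.3% of all genes were above the dim range on all arrays. Probe sets differ in how strongly they bind their transcripts, so the values do not rank the receptors by transcript amount, and a receptor within the dim range may still be transcribed.

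**Figure D1:**
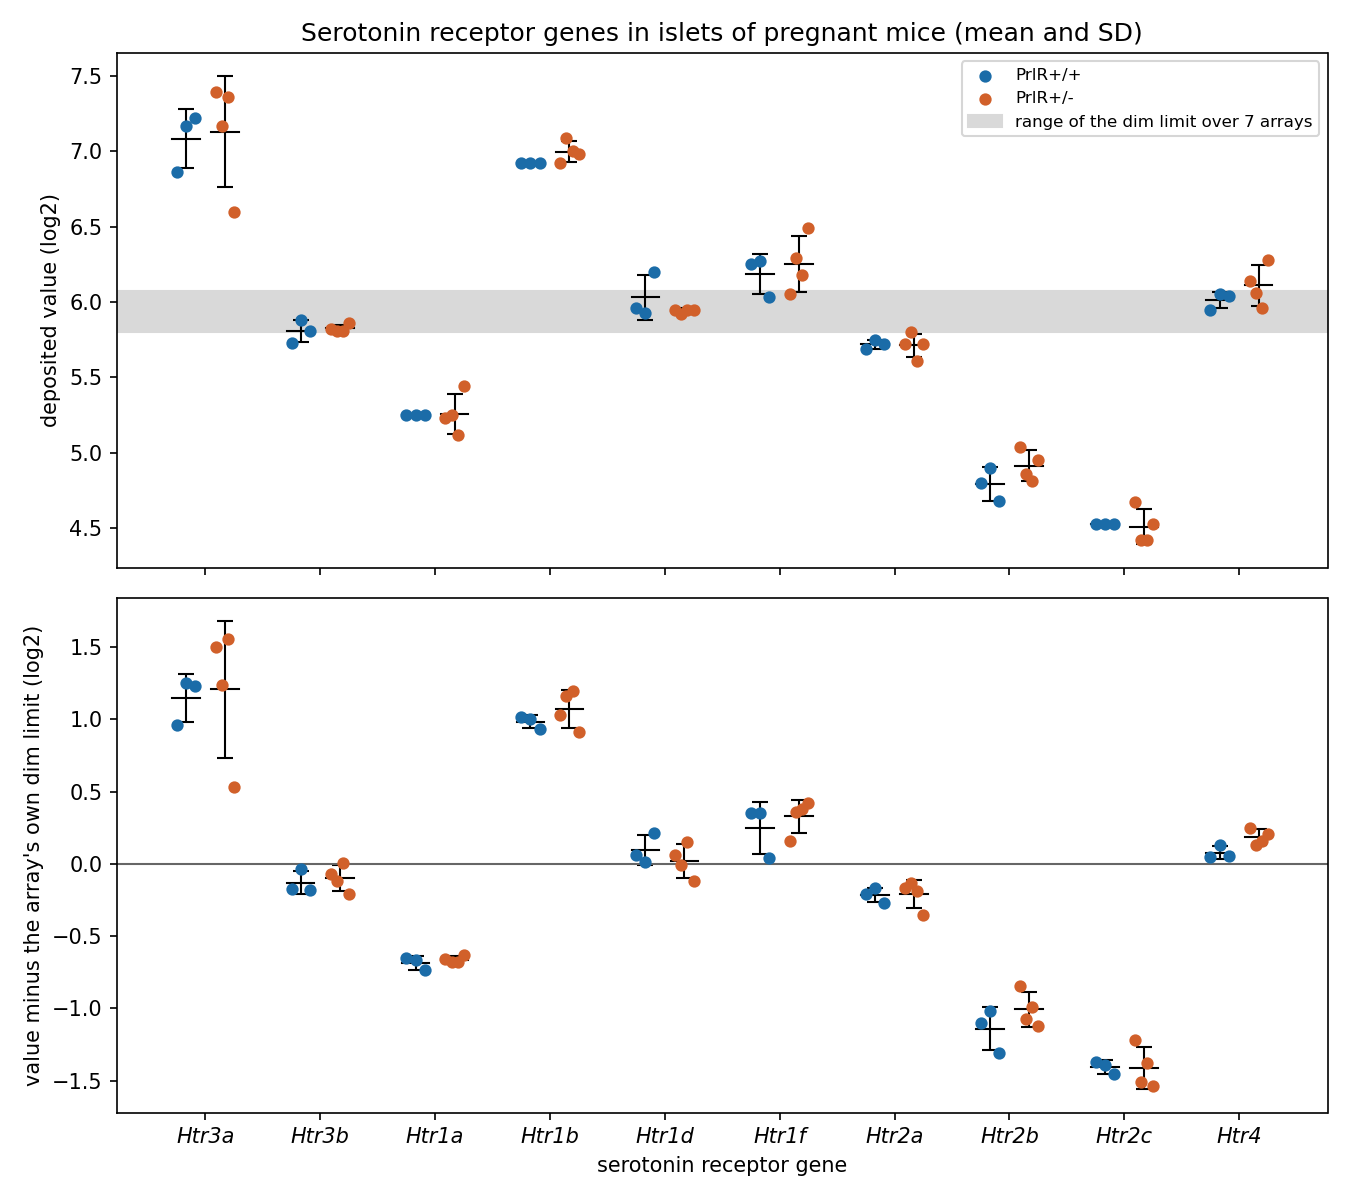
The upper panel plots the deposited log2 value of each receptor gene, 1 point per mouse with the mean and SD of each genotype (3 PrlR+/+ and 4 PrlR+/- mice), and the grey band spans the dim limits of the 7 arrays, from 5.80 to 6.07. The lower panel plots the same values minus the limit of the same array: all 7 points of Htr3a, Htr1b, Htr1f and Htr4 lie above 0, and all 7 of Htr1a, Htr2a, Htr2b and Htr2c lie below it.

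The limit bears on these calls. With the 99th percentile of the same reference genes, 6.68 to 6.96, Htr1b alone stayed above on all 7 arrays and Htr3a on 6 arrays. Among Y-linked genes, which female islets do not carry, 6 of 7 lay within the dim range, and the highest of these, Kdm5d, had a PrlR+/- mean of 4.35 ± 0.12 (SD, n = 4) and a PrlR+/+ mean of 4.23 ± 0.05 (SD, n = 3). The testis-determining gene Sry, however, had values between 7.10 and 7.75. No receptor gene exceeded the Sry value on all 7 arrays, so a probe set can read as high as Htr3a and Htr1b did on arrays where its gene is not carried. What sets the Sry value was not tested.

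**Figure D2:**
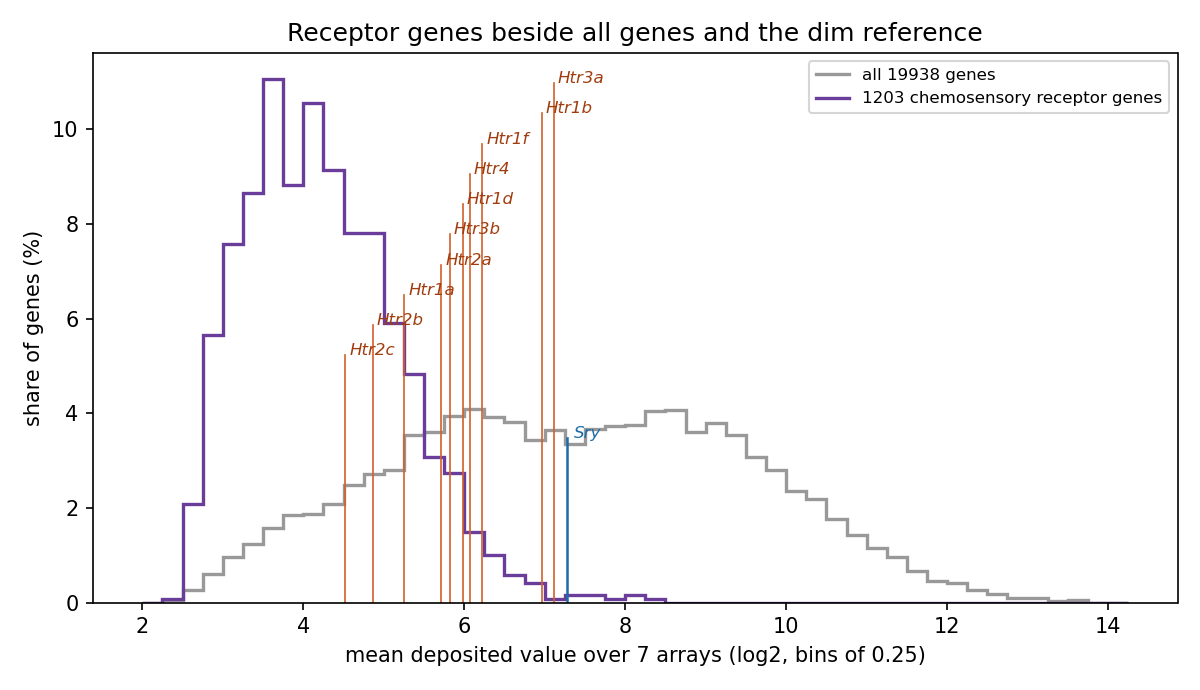
The histogram plots the share of genes against the mean log2 value over 7 arrays, for all 19938 genes and for the 1203 chemosensory receptor genes of the dim reference, with the means of the 10 serotonin receptor genes and of Sry as vertical lines. Htr3a and Htr1b lie beyond 99.3% and 99.2% of the reference genes, and Htr2c and Htr2b lie inside it.

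Htr3a, the subunit without which the channel does not form, had the highest mean of the 10 probe sets. Its log2 values were 6.86, 7.17 and 7.22 in PrlR+/+ islets and 7.39, 7.17, 7.36 and 6.60 in PrlR+/- islets (probe set 10593233). The groups overlapped, since the PrlR+/- mice held both the highest values and the lowest, and the lowest came from PrlR+/- 4. The PrlR+/- mean was 7.13 ± 0.37 (SD, n = 4) and the PrlR+/+ mean 7.08 ± 0.20 (SD, n = 3), a log2 difference of 0.05 ± 0.20 (SE; limma, adjusted p = 0.992 over all genes). The direction turned with the mouse left out: the difference was 0.223 without PrlR+/- 4 and -0.065 without PrlR+/+ 1. Htr3b, whose product joins the channel only together with Htr3a, ranged from 5.73 to 5.88 over all 7 mice. Its highest margin over the dim limit was 0.01, in PrlR+/- 3, and its means were 5.83 ± 0.02 (SD, n = 4) and 5.81 ± 0.08 (SD, n = 3).

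Htr1b, an inhibitory receptor known as an autoreceptor on serotonin nerve endings, was the most even of the receptors above the dim range. Its values were 6.92 in each of the 3 PrlR+/+ mice and 6.92, 7.09, 7.0 and 6.98 in the PrlR+/- mice (probe set 10595324). No PrlR+/- mouse lay below the PrlR+/+ mice, but PrlR+/- 1 had the same value, so the groups met. The difference was 0.08 ± 0.06 (SE; limma, adjusted p = 0.99), with means of 6.998 ± 0.07 (SD, n = 4) and 6.92 ± 0.00 (SD, n = 3). Equal values were common, since 34.5% of all genes had the same deposited value on at least 3 arrays. What sets these ties was not tested, and an SD of 0 does not show that mice were equal.

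The promoter of Htr1b is shown because it was the receptor gene above the stricter limit and because the prolactin receptor signals through STAT5, a factor known to bind the palindrome TTCNNNGAA. RefSeq promoter windows (GRCm38.p6) were matched for 8 of the 10 genes (not Htr3a and Htr4), with 9 windows of 250 bases before a transcription start. The motif TTCNNNGAA, searched on both strands, was in 0 of the 9 windows and in 7.02% of all 32851 windows of that length. The wider-spaced form TTCNNNNGAA, added after the first search, was in 1 of the 9, that of Htr1b, and in 5.85% of all windows. It starts 161 bases before the transcription start and overlaps no match of the other form. The window lies at chr9:81633833-81634082 on the minus strand and is printed 5′ to 3′ as the table gives it, with the match in capitals.
Htr1b: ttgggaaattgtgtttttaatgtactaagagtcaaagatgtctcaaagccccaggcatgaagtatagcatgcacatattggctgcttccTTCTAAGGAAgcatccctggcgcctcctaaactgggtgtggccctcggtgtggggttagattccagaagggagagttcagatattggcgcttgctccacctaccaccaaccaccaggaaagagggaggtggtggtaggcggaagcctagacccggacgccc
A match of letters is a description of the sequence and does not show binding, and the expression data hold no measure of it.

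Htr1f, another receptor of the inhibitory group, was at 6.25, 6.27 and 6.03 in PrlR+/+ islets and at 6.05, 6.29, 6.18 and 6.49 in PrlR+/- islets (probe set 10440302). The highest value came from PrlR+/- 4, the lowest from PrlR+/+ 3, and the groups overlapped. Its lowest margin over the dim limit was 0.043. The difference was 0.07 ± 0.12 (SE; limma, adjusted p = 0.99), and without PrlR+/- 4 it was -0.01. PrlR+/- 4 was also the array with the highest dim limit, 6.07, and the highest lower quartile of all genes, 5.82 against 5.62 to 5.73 on the other arrays.

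Htr1d, an inhibitory receptor of the group named above for pregnancy, was the gene just outside the dim range rule. Values were 5.96, 5.93 and 6.20 in PrlR+/+ islets and 5.95, 5.92, 5.95 and 5.95 in PrlR+/- islets (probe set 10509238). It fell short of the limit in PrlR+/- 2 and PrlR+/- 4. One PrlR+/+ mouse stood above the rest, and the groups overlapped. The difference of -0.09 ± 0.08 (SE; limma, adjusted p = 0.99) was the lowest of the 10 genes and rested on PrlR+/+ 3: without that mouse it was -0.0025. Htr1a, which encodes the inhibitory receptor of serotonin neuron cell bodies, read 5.25 in the 3 PrlR+/+ mice and 5.23, 5.25, 5.12 and 5.44 in the PrlR+/- mice (probe set 10407034). Its value nearest the dim limit of the same array was at -0.63 relative to it.

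The 3 genes of the Gq-coupled group were within the dim range in every mouse. Htr2b, which is known to act in the beta cell growth of pregnancy, was at 4.80, 4.90 and 4.68 in PrlR+/+ islets and at 5.04, 4.86, 4.81 and 4.95 in PrlR+/- islets (probe set 10356305). The groups overlapped, and the value nearest the dim limit was at -0.848 relative to it. Its difference of 0.12 ± 0.08 (SE; limma, adjusted p = 0.99) was the highest of the 10 with all mice. It was 0.065 without PrlR+/+ 3, 0.08 without PrlR+/- 1 and 0.213 with array weights. Of the chemosensory reference genes, 75.3% had a lower mean than Htr2b.

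Htr2a, the Gq-coupled receptor of platelets and cortical neurons, ranged from 5.61 to 5.80 over the 7 mice (probe set 10416406). It differed by -0.01 ± 0.06 (SE) between the genotypes, and its lowest and highest values were both from PrlR+/- mice. Htr2c, a receptor of the brain, had the lowest mean of the 10 probe sets, with values of 4.53 in the 3 PrlR+/+ mice and 4.67, 4.42, 4.42 and 4.53 in the PrlR+/- mice (probe set 10602261). Its difference was -0.02 ± 0.08 (SE). At such values a difference in transcripts may not be visible.

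Htr4, the Gs-coupled receptor, was above the dim range by a small margin, as Htr1f was. It was at 5.95, 6.05 and 6.04 in PrlR+/+ islets and at 6.14, 6.06, 5.96 and 6.28 in PrlR+/- islets (probe set 10456161). The lowest margin over the limit of the same array was 0.05. PrlR+/- 3 lay below 2 of the PrlR+/+ mice, so the groups overlapped, and the highest value again came from PrlR+/- 4. The difference was 0.10 ± 0.08 (SE; limma, adjusted p = 0.99), and 0.04 without PrlR+/- 4.

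Of the 10 genes, 7 had a higher and 3 a lower mean in PrlR+/- islets, with log2 differences from -0.09 to 0.12 and a median of 0.03, beside a median of 0.01 over all genes. The adjusted test of limma called 0 of the 10, where it called 0% of all genes, and 0 of the 10 had an unadjusted p under 0.05, as 2.2% of all genes had. With array weights, which let arrays count unequally, Htr2b had an unadjusted p of 0.0224 by limma and an adjusted p of 0.818. The share of all genes with an unadjusted p under 0.05 in that fit was not counted. The groups were free of overlap for 0 of the 10 receptor genes and for 2.24% of all genes. These counts do not stand apart from the background. The direction turned when a single mouse was left out for 6 genes: Htr3a (PrlR+/+ 1, PrlR+/- 1 or PrlR+/- 3), Htr3b (PrlR+/+ 1), Htr1a (PrlR+/- 4), Htr1f (PrlR+/+ 3 or PrlR+/- 4), Htr2a (PrlR+/+ 2 or PrlR+/- 3) and Htr2c (PrlR+/- 2 or PrlR+/- 3). These p-values do not show that the genotypes were alike, but the intervals bound the difference: for all 10 genes the 95% interval of the measured difference lay within 1.5-fold in both directions, and for 8 within 1.25-fold, as it did for 89.9% and 53.4% of all genes. The exceptions at 1.25-fold were Htr3a, with a ratio of PrlR+/- to PrlR+/+ between 0.745 and 1.43, and Htr1f, between 0.869 and 1.27. Each interval bounds the array value. For the 6 genes that were not above the dim range on all arrays, it may not bound the transcript. The same holds for Htr1f and Htr4, which lay close to the dim limit. Htr1a, Htr1b and Htr2c had equal values in all PrlR+/+ mice, so their intervals may be too narrow.

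**Figure D3:**
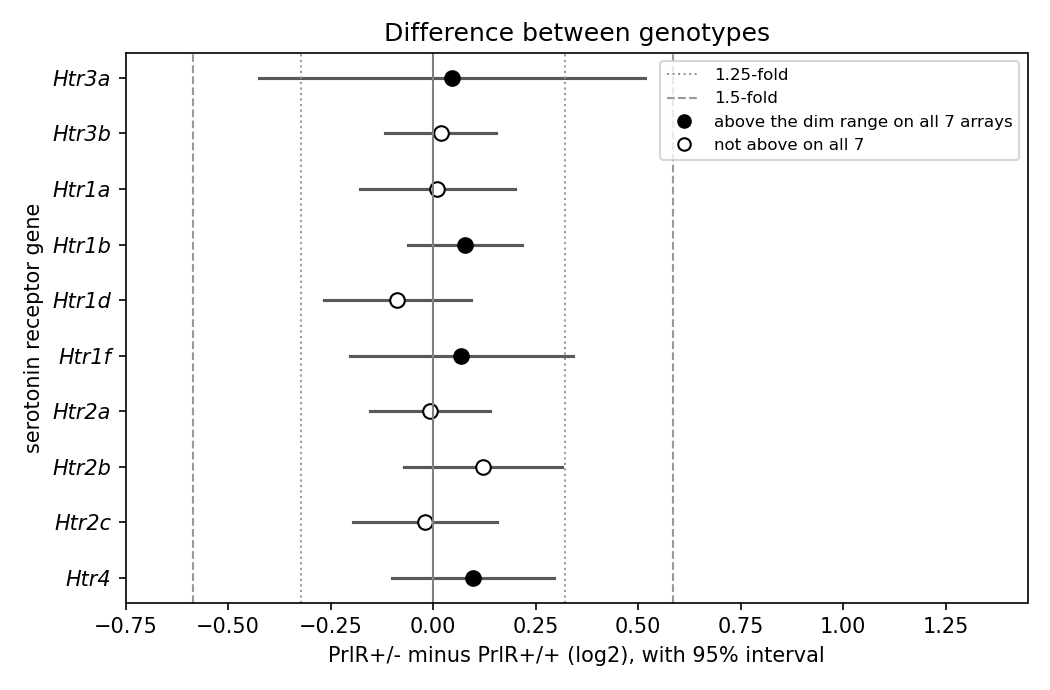
Points are the log2 differences, PrlR+/- minus PrlR+/+, of the 10 receptor genes and lines their 95% intervals from limma; filled points are the 4 genes above the dim range on all 7 arrays. All lines cross 0 and stay inside the dashed marks at 1.5-fold, and that of Htr3a is the widest.

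The 4 other serotonin receptor genes on the array, Htr5a, Htr5b, Htr6 and Htr7, gave 0 genes above the dim range on all arrays. Htr5b and Htr5a had the smallest unadjusted p among them, with differences of 0.18 ± 0.10 and 0.17 ± 0.12 (SE) at means of 5.70 and 5.25 in PrlR+/- islets. Both had one of their 2 highest values in PrlR+/- 4.

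Of the genes that make, store, take up and break down serotonin, 7 of 8 were above the dim range, beside 68.3% of all genes, the exception being Slc6a4, the reuptake transporter. The lowest differences were those of the synthesis enzymes Tph1 (-1.53 ± 0.71, SE; named after its value was seen) and Tph2 (-0.62 ± 0.23) and of the vesicle transporter Slc18a1 (-0.42 ± 0.10). The size of the Tph1 difference leaned on PrlR+/- 3, at 7.64 against 10.12 to 10.72 in the other PrlR+/- mice, and without it the difference was -0.84. Its direction held with each mouse left out, with differences from -1.87 to -0.84. In the full fit 2 of 8 genes, Tph2 and Slc18a1, had an unadjusted p under 0.05, beside 2.2% of all genes. The adjusted test of limma called 0 of the 8. The groups were free of overlap for 1 of the 8, Slc18a1, and for 2.24% of all genes.

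In the signalling chains that the receptors use, limma called 0 genes after adjustment; the counts above the dim range stand beside 68.3% of all genes. Of 9 genes of Gi/o proteins and their potassium channels, which serve the Htr1 receptors, 7 were above the dim range and 8 had a lower mean in PrlR+/- islets, with a median of -0.04, while 56.2% of all genes had a higher mean. Gnai1, a Gi subunit, was at 9.93, 10.34 and 10 in PrlR+/+ islets and at 9.94, 9.81, 9.79 and 9.64 in PrlR+/- islets. Only PrlR+/- 1 reached into the PrlR+/+ range, and the difference was -0.30 ± 0.12 (SE; limma, adjusted p = 0.99). Gnai3, another Gi subunit, differed by -0.15 ± 0.12 (SE).

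Of 14 measured genes of the Gq chain, from G protein through phospholipase C beta and the IP3 receptors to protein kinase C, 14 were above the dim range, 8 had a higher and 6 a lower mean, and the median was 0.01. The IP3 receptor gene Itpr1 was on the list but not measured. Plcb2, a phospholipase C of blood cells, differed by 0.13 ± 0.08 and the kinase gene Prkca by 0.25 ± 0.21 (SE). Prkca was high in PrlR+/- 3 and PrlR+/- 4, at 10.66 and 10.75, against 9.95 to 10.20 in the other mice.

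Of 17 measured genes of the Gs chain, which Htr4 uses, 15 were above the dim range, 8 had a higher and 9 a lower mean, and the median was 0.00. Gnas, Prkaca and Rapgef4 were on the list but not measured. Gnal, the only G protein gene measured in this list, was above the dim range on 6 arrays. Prkar2b, a regulatory subunit of protein kinase A, was at 10.16, 10.03 and 10.15 in PrlR+/+ islets and at 10.03, 9.68, 9.88 and 9.58 in PrlR+/- islets. The groups met at 10.03, and the difference was -0.32 ± 0.11 (SE; limma, adjusted p = 0.99). Prkar2a, a sister subunit, differed by -0.17 ± 0.08 (SE).

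Receptor partners, a list of chaperones, RNA editors, scaffolds, kinases and arrestins, had 11 measured genes, of which 5 had a higher and 6 a lower mean. Ric3, the chaperone of the serotonin-gated channel, was at 7.74 ± 0.05 (SD, n = 4) and 7.82 ± 0.08 (SD, n = 3). Arrb2, an arrestin that ends receptor signalling, was at 8.94, 9.0, 9.58 and 9.67 in PrlR+/- islets and at 8.89, 8.73 and 8.95 in PrlR+/+ islets. PrlR+/- 3 and PrlR+/- 4 stood above the rest, the groups overlapped, and the difference was 0.44 ± 0.20 (SE; limma, adjusted p = 0.99). Mpdz, a scaffold that binds Htr2c, differed by -0.15 ± 0.09 (SE).

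**Figure D4:**
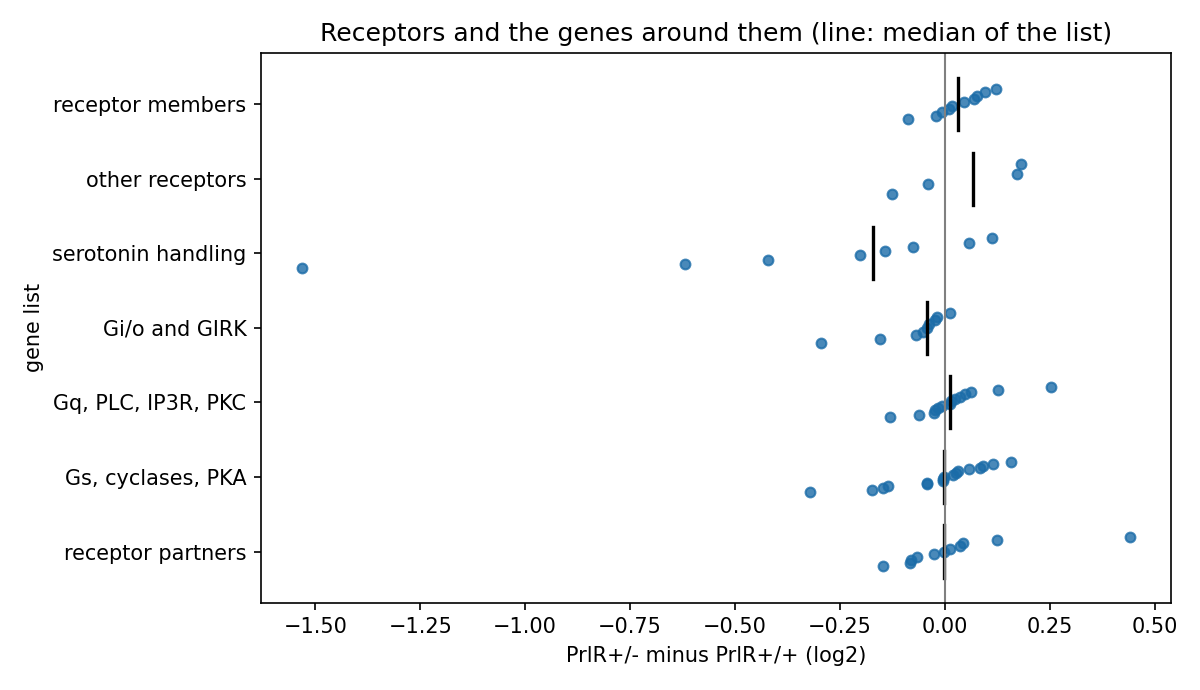
Each point is the log2 difference, PrlR+/- minus PrlR+/+, of 1 gene, by gene list, and the vertical line is the median of the list. The receptor genes lie between -0.09 and 0.12, and the serotonin handling genes between -1.53 and 0.11.

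The genes whose mouse-by-mouse pattern lay closest to a receptor gene were sought among genes above the dim range that varied at least as much, by the mean absolute difference of the deviations from each gene's own mean over 7 arrays. For Htr3a, with 1458 candidates, they were Esm1, which encodes the secreted proteoglycan endocan (0.08), Dact1, a regulator of Wnt signalling (0.101), and the Wnt ligand gene Wnt4 (0.102). All 3 had their lowest value in PrlR+/- 4, as Htr3a had. For Htr1b the closest were Fam83a (0.022), Hip1r (0.023) and Ceacam10 (0.024), with their highest value in PrlR+/- 2. For Htr1f they were Cdc25a (0.04), Gpatch4 (0.045) and Bdkrb2 (0.047), and for Htr4 Rprml (0.024), Pla2g10 (0.025) and Pld2 (0.029). These 6 genes had their highest value in PrlR+/- 4. With so many candidates some close patterns are found for any gene, and no test was made.

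Islets hold several cell types, and in whole islets fewer cells of a type and less RNA per cell cannot be told apart. Beta cell transcripts were bright: Ins2 and Iapp averaged 13.29 and 13.45 in PrlR+/- islets, near the highest value of 13.97. The acinar transcript Cpa1 read at least as high, at 13.68 ± 0.07 (SD, n = 4) and 13.67 ± 0.06 (SD, n = 3). These values therefore do not tell how pure the islets were. Schwann cell and neuron markers, from cells that also use serotonin receptors, had a higher mean in PrlR+/- islets for 8 of 8 genes, beside 56.2% of all genes, with 5 of 8 above the dim range, beside 68.3%. Their mean level ran from 6.78 to 6.996 in the PrlR+/- mice and from 6.59 to 6.80 in the PrlR+/+ mice, and the part of nerve in the receptor values was not tested. Of the mast cell markers 2 of 8 and of the platelet markers 2 of 4 were above the dim range. The mast cell markers above the dim range were Tpsb2 and Hdc, which averaged 6.30 and 6.38 in PrlR+/- islets. The other mast cell markers were inside the dim range on every array, among them Cpa3, Fcer1a and Ms4a2, which averaged 3.95, 3.75 and 3.50 in PrlR+/- islets.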

How the data were processed

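Per the labels' protocols, each array took 250 ng of total RNA of an integrity number over 8.5, labelled with biotin. The authors deposited log2 values per probe set for 7 arrays; their scale was judged from the range, 1.73 to 13.97. Affymetrix Expression Console 1.2.0.20 is named in the submitters' processing notes, and the normalization is not given in the sources used here. Of 35556 probe sets, the platform annotation gave 1 symbol to 21789, several symbols to 1621 and none to 12146; the brightest probe set stood for each of 19938 genes. No detection call, scan date or read depth was used, and the number of arrays limits the precision.

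Groups came from the source labels. limma 3.58.1 (lmFit and eBayes; R 4.3.3), tested on simulated data, compared PrlR+/- with PrlR+/+ over all genes, 2-sided, with Benjamini-Hochberg adjustment and a threshold of 0.05. Tables were made with pandas 2.3.3 in Python 3.11.15. Named are all 10 receptor genes, the 2 genes of smallest unadjusted p in each signalling list, and the 3 closest patterns for each receptor gene above the dim range; other names were chosen after their values were seen. The members and lists were chosen with earlier results of these data known. Alternatives were other variance models, array weights, scalings, a filter on dim genes, the mean of all probe sets, a block on the replicate number, fits without each mouse, and other dim limits.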

Additional observations from a re-analysis of the deposited data

Results flagged for a closer look

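In PrlR+/- islets the Htr1d value of PrlR+/- 2, 5.92, stood apart from the other 3 mice, which all read 5.95. The gap is 0.03 on a scale deposited with 2 decimals. With the other 3 mice tied, the measure marks a gap of any size. Its rate of about 1 in 20 groups marked by chance is for values without ties and does not apply here. Htr1d was the 1 receptor gene of 10 with a mouse apart from its group by this measure, which was applied to the 4 PrlR+/- mice only.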

How the results depend on the processing

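In all 15 alternatives limma called 0 genes after adjustment, and 0 receptor genes. The other variance models, the filter on dim genes and the mean of all probe sets cannot change the difference of a receptor gene, so they do not bear on its direction. Under the remaining alternatives the direction held for Htr1b, Htr1d, Htr2b and Htr4. It turned for Htr1a with array weights (-0.0154) and the replicate block (-0.05) and was 0 with median centring, and it turned for Htr2a with array weights (0.0083), for Htr2c with array weights (0.0437) and quantile normalization (0.0037), and for Htr1f with the replicate block (-0.01). Since PrlR+/- 4 shares its number with no PrlR+/+ mouse, the block takes no difference from it, and its values equal those without that mouse. With each mouse left out in turn, the differences ranged from -0.05 to 0.0567 for Htr1a, -0.01 to 0.137 for Htr1f, -0.0367 to 0.0267 for Htr2a, -0.0733 to 0.01 for Htr2c, 0.065 to 0.175 for Htr2b, -0.065 to 0.223 for Htr3a and -0.02 to 0.055 for Htr3b. The cause was not tested. The count of 4 receptor genes above the dim range held with quantile normalization. With each mouse left out it could not fall, since a gene above on all arrays is above on those that remain. With the mean of all probe sets only the limits could move, since each receptor gene has 1 probe set. The count was 4 in these settings as well. It was 5 where 4 arrays sufficed, 1 with the 99th percentile of the reference or the 40th percentile of all genes, 0 with the median of all genes or the highest Y-linked gene, and 10 with the highest Y-linked gene other than Sry, a limit added after the data were seen. The replicate numbers did not pair the mice: deviations of same-numbered mice correlated at 0.0896, -0.386 and -0.0287 across genes, and 0 of 3 PrlR+/+ mice correlated best with their own number. Signal near the dim range limits what can be seen of 8 of the 10 genes.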

Other observations

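Equal values on several arrays were common among dim genes. Of the 10 receptor genes, 6 had the same deposited value on at least 3 of 7 arrays, among them Htr1a, Htr1b and Htr2c with the same value on 4 arrays, which in each case included all 3 PrlR+/+ mice. Over all genes the share was 59.3% among the 4985 genes with the lowest means and 14.5% among the 4984 with the highest. The median SD over the 7 arrays was 0.108 among the former and 0.152 among the latter, so the spread of a dim gene on these arrays was smaller and not larger than that of a bright one.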
